A study of Mus musculus with 12 samples.

Results

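The complement components and receptors described here are 9 genes: C1qa, C1qb and C1qc, which encode the A, B and C chains of C1q, the central components C3 and C4b, the alternative pathway genes Cfb and Cfp, and the anaphylatoxin receptor genes C3ar1 and C5ar1. They were taken by gene symbol from count tables of 26699 genes. All 9 had a row in every library and all 9 were among the 11927 genes that passed the filter on low counts. RNA was sequenced from macrophages of adult wild-type C57BL/6 mouse synovium, the lining tissue of the joint. Whole synovium was kept as explants for 4 h with vehicle (control, labelled healthy) or with 100 nM CGRP, calcitonin gene-related peptide, a neuropeptide that nociceptors release. MHCII+CD11c- cells (labelled IAIE) and MHCII+CD11c+ cells (labelled CD11c) were then sorted after collagenase digestion. No allele or transgene was used, and CGRP was added to whole tissue, so other synovial cells met it as well. There were 4 groups of 3 libraries, IAIE control, IAIE CGRP, CD11c control and CD11c CGRP, and the labels do not say whether libraries came from separate mice, so p-values measure the spread between these libraries, which may be technical.

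Complement is a cascade of plasma proteins that tags particles for uptake and calls in leukocytes. C1q starts the classical pathway by binding immune complexes, C4 and C3 are cleaved and attach to the target, and factor B and properdin amplify C3 cleavage in the alternative pathway. The small fragments C3a and C5a act on leukocytes through C3aR and C5aR1. Most complement proteins come from the liver, whereas C1q and properdin are made largely by myeloid cells, and tissue macrophages are a known source of C1q.

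The 3 C1q genes lie beside each other on the minus strand of mouse chromosome 4, within 18.7 kb (GRCm38, mm10). C1qb spans chr4:136880129-136886187, C1qc chr4:136889804-136893065 and C1qa chr4:136895917-136898803. C3 (chr17:57203970-57228136), C4b (chr17:34728380-34743882) and Cfb (chr17:34856374-34862518) share chromosome 17, with C4b and Cfb 112 kb apart. Cfp lies at chrX:20925454-20931555, C3ar1 at chr6:122847138-122856161 and C5ar1 at chr7:16246743-16259540, all on the minus strand. RefSeq promoter windows (GRCm38.p6, 250 bases before to 50 bases after the start) were at hand for 6 of the 9 genes. The gene spans above are from the GENCODE annotation, and the RefSeq starts do not always match them. For C1qc the RefSeq start lies inside the GENCODE span, so part of the window overlaps that span. Shown here are the 250 bases before the start of C1qb and C1qc, neighbours whose levels moved together, and of C3ar1, the member that rose with CGRP in CD11c cells. All are on the minus strand, 5′ to 3′, and capitals mark motif matches.
C1qb (chr4:136886201-136886450): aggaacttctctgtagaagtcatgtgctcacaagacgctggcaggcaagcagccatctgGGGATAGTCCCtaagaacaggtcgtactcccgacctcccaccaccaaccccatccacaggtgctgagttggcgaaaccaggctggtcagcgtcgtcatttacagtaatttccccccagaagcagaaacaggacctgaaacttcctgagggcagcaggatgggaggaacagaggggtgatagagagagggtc
C1qc (chr4:136892915-136893164): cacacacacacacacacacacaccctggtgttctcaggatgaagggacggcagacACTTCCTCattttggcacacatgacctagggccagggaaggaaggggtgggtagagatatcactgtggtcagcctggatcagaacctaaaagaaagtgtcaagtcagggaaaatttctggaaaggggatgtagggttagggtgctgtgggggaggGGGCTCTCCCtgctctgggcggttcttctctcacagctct
C3ar1 (chr6:122856158-122856407): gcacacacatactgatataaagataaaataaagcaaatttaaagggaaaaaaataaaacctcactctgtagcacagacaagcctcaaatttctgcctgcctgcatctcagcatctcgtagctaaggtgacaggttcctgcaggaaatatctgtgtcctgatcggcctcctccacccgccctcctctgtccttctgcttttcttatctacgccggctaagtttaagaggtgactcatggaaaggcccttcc
Motifs were searched on both strands of the 300-base windows: the cAMP response element TGACGTCA, the interferon-stimulated response element (GAAA, any 2 bases, GAAA), the kB motif (GGGA, any 4 bases, CC) and the PU.1 motif GAGGAAGT. The C1qb window held the kB letters on each strand, 191 and 190 bases before the start and overlapping each other. The C1qc window held the kB letters 40 bases and the PU.1 letters 195 bases before the RefSeq start, both on the opposite strand. Of these, the kB match lies inside the GENCODE span of C1qc and the PU.1 match outside it. C3 held 3 kB matches, and Cfp, C3ar1 and C5ar1 held none of the 4 motifs. Of 32851 promoter windows of this length, 20.7% held the kB letters, 3.2% the PU.1 letters, 3.44% the interferon letters and 1.79% the cAMP letters. A match describes the letters alone.

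Library totals ran from 2127191 to 5649698 assigned reads, and levels are given as CPM, counts per 1000000 assigned reads after scaling of the libraries. The sort showed in the RNA: Itgax, which encodes CD11c, had 6.19 ± 4.76 CPM (SD, n = 3) in IAIE control and 237 ± 29.0 CPM in CD11c control, and the MHCII gene H2-Ab1 had 3896 ± 387 and 10590 ± 886 CPM. With CGRP, Itgax had 5.4 ± 3.9 CPM in IAIE and 115.5 ± 7.33 CPM in CD11c cells. H2-Ab1 had 2332 ± 243 and 6693 ± 508 CPM, lower than control in both subsets. All 8 macrophage markers were detected, with summed levels of 6474 to 8276 CPM in the IAIE libraries of control explants and 5985 to 6739 of CGRP explants, and of 5357 to 7013 and 3719 to 4389 CPM in the CD11c libraries. Summed markers of dendritic cells, which can share MHCII and CD11c, were 230.5 to 318 CPM and 171 to 198 CPM in the IAIE libraries, and 942 to 979 CPM and 798 to 909 CPM in the CD11c libraries, control before CGRP. Fibroblast markers summed to 308, 1553 and 453 CPM in the IAIE control libraries and to 567 to 771 CPM in IAIE CGRP, while CD11c cells had 201 to 277 CPM without and 444 to 698 CPM with CGRP. IAIE control 2 thus stood apart. Where named, results for complement genes are also given without it, whereas the calls of marker genes are given with all libraries. In bulk RNA, fewer cells of a kind and less RNA per cell cannot be told apart.

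The largest differences among these genes lay between the subsets. In control explants, 7 of the 9 members were lower in CD11c than in IAIE macrophages: the 3 C1q chains, C3, C4b, C3ar1 and C5ar1. One, Cfp, was higher, and Cfb did not pass. Across all genes tested, 10.9% were called lower and 10.2% higher (edgeR quasi-likelihood test, Benjamini-Hochberg adjusted p under 0.05). The members had a median log2 difference of -1.60, against -0.02 over all genes. After CGRP the same 7 members were lower, and none was called higher by edgeR, DESeq2 or limma-voom, with 1 higher at an unadjusted p under 0.05 (Cfp). The background was 8.51% lower and 8.36% higher. The median over members was -1.55, against 0.002 over all genes.

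**Figure D1:**
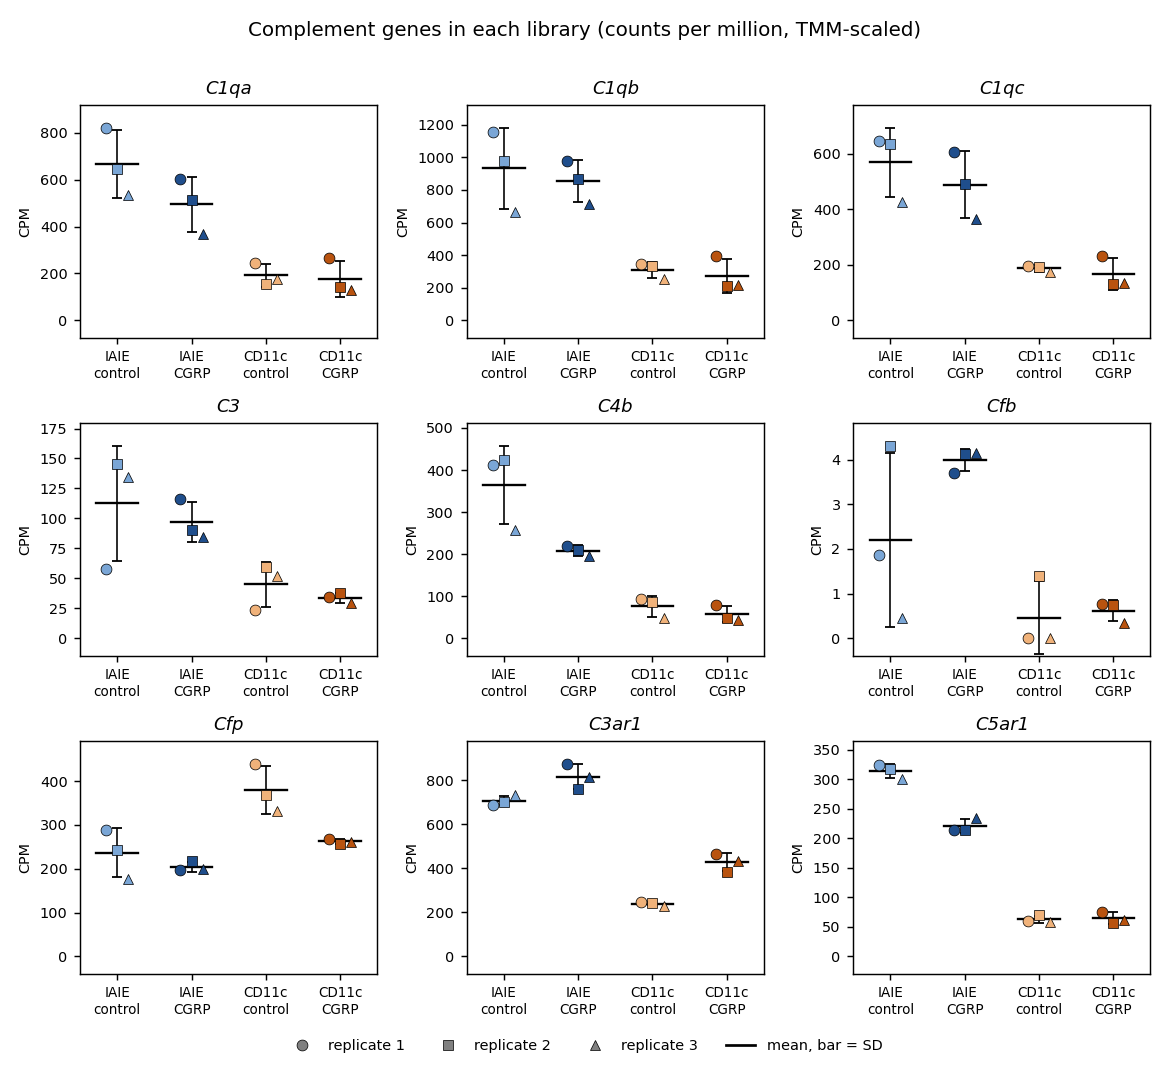
CPM (y axis, linear) of the 9 complement genes in the 12 libraries, by group (x axis). Symbols mark the replicate number, horizontal lines the mean and bars the SD of 3 libraries. All 6 libraries of CD11c macrophages lie below all 6 of IAIE macrophages for the C1q chains, C4b, C3ar1 and C5ar1, and Cfp is highest in CD11c control.

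The C1q chains were among the most abundant members, and C1qb had the highest mean CPM of all 9 in both IAIE groups. C3ar1 exceeded C1qb in IAIE control 3 (731 against 667 CPM) and in IAIE CGRP 3 (814 against 717 CPM). The highest mean was that of Cfp in CD11c control (379 CPM, C1qb 311 CPM) and of C3ar1 in CD11c CGRP (428 CPM, C1qb 274 CPM). C1qa stood at 820.5, 645 and 536 CPM in the IAIE control libraries and at 246, 154 and 176 CPM in the CD11c control libraries. C1qb was at 1156, 976 and 667 CPM against 347, 331 and 255 CPM. C1qc was at 645, 634 and 426 CPM against 197, 192 and 173 CPM. For each chain the lowest IAIE library lay above the highest CD11c library. The fitted folds were close to each other, 3.49-fold for C1qa (log2 -1.80 ± 0.25, SE; adjusted p = 3.73e-05), 3.005-fold for C1qb (log2 -1.59 ± 0.23; adjusted p = 4.37e-05) and 3.04-fold for C1qc (log2 -1.60 ± 0.22; adjusted p = 2.65e-05). Together the 3 chains took 0.225% ± 0.0490 of assigned reads in IAIE control and 0.0707% ± 0.00795 in CD11c control (SD, n = 3).

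After CGRP the difference between subsets was of similar size. C1qa was at 603, 512 and 369 CPM in IAIE CGRP and at 266, 141 and 127 CPM in CD11c CGRP, a log2 difference of -1.47 ± 0.25 (adjusted p = 2.67e-04). C1qb was at 976, 868 and 717 CPM against 395, 212 and 215.5 CPM (-1.64 ± 0.23; adjusted p = 3.09e-05). C1qc was at 606, 491.5 and 364 CPM against 233, 131 and 135 CPM (-1.55 ± 0.22; adjusted p = 3.69e-05). CD11c CGRP 1 was the highest of its group for all 3 chains, and the subsets still did not overlap.

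CGRP itself moved no C1q chain past the threshold in either subset. In IAIE macrophages the log2 change was -0.43 for C1qa (95% interval -0.94 to 0.07; adjusted p = 0.320), -0.13 for C1qb (-0.59 to 0.33; 0.796) and -0.22 for C1qc (-0.66 to 0.22; 0.599). In CD11c macrophages it was -0.10 for C1qa (-0.62 to 0.42; 0.874), -0.18 for C1qb (-0.64 to 0.28; 0.714) and -0.17 for C1qc (-0.62 to 0.28; 0.725). Control and CGRP libraries overlapped for each chain in each subset. These intervals reach from -0.94 to 0.42 on the log2 scale, so they do not show that the chains were unmoved.

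A C1q molecule holds its chains in equal number, and their RNA kept similar proportions over the groups. Per kilobase of exon, the level of C1qa was 0.758 ± 0.0755 of that of C1qb in IAIE control and 0.6004 ± 0.0557 in IAIE CGRP (SD, n = 3). In CD11c cells it was 0.651 ± 0.142 before and 0.673 ± 0.0478 after CGRP. The ratio of C1qc to C1qb was 0.347 ± 0.0282, 0.318 ± 0.0317, 0.343 ± 0.0341 and 0.345 ± 0.0116 in the same order. The C1qa to C1qb ratio of IAIE control, 0.692 to 0.840 by library, lay above that of IAIE CGRP, 0.538 to 0.646. This difference between the ratios was not tested. As deviations from group means on the log2 scale, over 12 libraries in 4 groups, the chains correlated at r = 0.870 for C1qa and C1qb, 0.878 for C1qa and C1qc and 0.945 for C1qb and C1qc. These values describe neighbouring genes that share libraries and depth.

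C4b and C3 encode the proteins that are cleaved and attach to targets. C4b stood at 412, 423 and 258 CPM in IAIE control and 220, 210 and 196 CPM in IAIE CGRP. The CD11c libraries had 94.6, 85.6 and 47.4 CPM as controls and 79.4, 49.5 and 43.8 CPM with CGRP. No library of one group overlapped another, except between the CD11c groups. Between subsets it was 4.85-fold lower in CD11c control (log2 -2.28 ± 0.25; adjusted p = 2.27e-06) and 3.62-fold lower after CGRP (-1.86 ± 0.25; adjusted p = 2.01e-05). Of the C4b sequence, 34.6% of 50-base words also occur in its near-copy C4a, which had 0 to 17 reads in any library, so the split between the copies is uncertain.

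With CGRP, C4b fell in IAIE macrophages from 365 ± 92.2 to 209 ± 12.3 CPM (SD, n = 3), a fitted log2 change of -0.81 ± 0.23 (edgeR adjusted p = 0.0338). C4b and C5ar1 were the 2 of 9 members called lower there, against 3.89% of all genes called lower. No member was called higher by edgeR, DESeq2 or limma-voom, with 0 higher at an unadjusted p under 0.05, against 5.32% of all genes. The C4b call was lost in 5 of the 12 fits that left out 1 library, those without IAIE control 1 (adjusted p = 0.124), IAIE control 2 (0.1496), IAIE CGRP 1 (0.0723), IAIE CGRP 2 (0.104) or IAIE CGRP 3 (0.115), with log2 changes of -0.84 to -0.66, and with 1 surrogate variable (0.117). Fibroblast collagen genes fell beside it. Of 6 tested fibroblast markers 3 were called lower in IAIE CGRP, Col1a1 (35.0, 670.0 and 91.8 CPM in control against 53.5, 17.0 and 27.1 CPM), Col1a2 and Col3a1, and 1 higher, Pdpn (176 to 578 CPM on average), which carries most of the summed level after CGRP. Of 7 tested dendritic cell markers 2, Flt3 and Irf4, were lower there as well. IAIE control 2, the library with the highest summed fibroblast markers (1553 CPM), had 423 CPM of C4b. IAIE control 1, with the lowest of that group (308 CPM), had 412 CPM, and IAIE control 3 (453 CPM) had 258 CPM. C5ar1 was highest in IAIE control 1 (323 CPM, against 317 CPM in IAIE control 2). The part of other cells in the falls of C4b and C5ar1 was not tested. In CD11c macrophages the C4b change was -0.38 (95% interval -0.90 to 0.13; adjusted p = 0.403), and the difference between the subsets' changes was 0.42 (-0.29 to 1.13; adjusted p = 0.806).

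C3 was lower and more scattered. It was at 57.7, 146 and 134 CPM in IAIE control and 116, 90.1 and 84.9 CPM in IAIE CGRP. In CD11c cells it was at 24.1, 59.2 and 51.9 CPM as controls and 34.7, 37.6 and 29.5 CPM with CGRP. IAIE control 1 lay below the others of its group and below the highest CD11c control library, so the control groups overlapped. The subset difference passed in both conditions, -1.29 ± 0.30 in control (adjusted p = 0.00389) and -1.51 ± 0.30 after CGRP (adjusted p = 0.00116). Without IAIE control 2 the control difference was -1.04 (adjusted p = 0.0320). The C3 change with CGRP was -0.21 in IAIE (95% interval -0.82 to 0.39) and -0.44 in CD11c macrophages (-1.07 to 0.20), and neither passed (adjusted p = 0.734 and 0.449).

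Markers of other cells moved with the subsets too. In control explants 7 of 8 tested macrophage markers, 5 of 6 fibroblast markers and 3 of 4 B cell markers were lower in CD11c cells, and 5 of 7 dendritic cell markers were higher. After CGRP these were 5 of 8 lower for macrophages, 1 of 6 higher and 1 lower for fibroblasts, 4 of 4 lower for B cells and 4 of 7 higher for dendritic cells. The macrophage markers' summed range in CD11c control overlapped that of IAIE control, whereas the members named above, other than C3, did not overlap. The part of other cell types in the subset differences was not tested.

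Of the alternative pathway genes, Cfp differed from the rest in direction between subsets. Cfb was lower in CD11c cells, like most members, but did not pass in the main fit. Properdin, encoded by Cfp, stabilises the C3 convertase. Cfp stood at 288, 243 and 177 CPM in IAIE control and at 438.5, 368 and 331.5 CPM in CD11c control, with no overlap. It was 1.60-fold higher in CD11c macrophages (log2 0.68 ± 0.15; adjusted p = 0.00335). With CGRP the CD11c libraries were at 268.5, 257 and 261 CPM, below every control library of that subset. The fall was 0.53 ± 0.15 on the log2 scale (1.45-fold; adjusted p = 0.0284). Cfp was the only member of 9 called lower there, against 4.59% of all genes. Dendritic cell markers moved beside it: 4 of 7 tested were lower with CGRP in CD11c cells, Cd209a (297.5 to 79.3 CPM on average), Irf4 (283 to 130.4 CPM), Flt3 and Dpp4, and 1 was higher, Ccr7 (240.0 to 576 CPM). Their part in the change of Cfp was not tested. That call was lost without CD11c control 1 (adjusted p = 0.1502), CD11c CGRP 2 (0.0851) or CD11c CGRP 3 (0.0653) and with 1 surrogate variable (0.108). In IAIE CGRP, Cfp was at 197, 218 and 199 CPM, a change of -0.21 (95% interval -0.53 to 0.11; adjusted p = 0.477). After CGRP the subsets did not overlap for Cfp, but the difference of 0.36 ± 0.15 had an adjusted p of 0.126. With the replicate number of each explant as a block it was 0.36 with an adjusted p of 0.0277, which makes 8 of 9 members called there. With only the compared groups in the fit, Cfp (adjusted p = 0.0466) and Cfb (0.0112) both passed, so that all 9 were called.

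Cfb, which encodes the protease factor B, was near the limit of detection. Reads numbered 6, 15 and 1 in IAIE control and 14, 17 and 22 in IAIE CGRP. The CD11c libraries held 0, 6 and 0 reads without and 4, 3 and 2 reads with CGRP. The CD11c control libraries with 0 reads allow up to 1.22 and 0.644 CPM (3 reads, counting error only). IAIE CGRP, at 3.70 to 4.15 CPM, lay above both CD11c groups. The subset difference was -2.10 ± 1.08 in control (adjusted p = 0.190) and -2.64 ± 0.999 after CGRP (adjusted p = 0.0802), where DESeq2 gave an adjusted p of 0.0394 and limma-voom one of 0.029. Its change with CGRP was 0.80 in IAIE (95% interval -1.12 to 2.72) and 0.26 in CD11c macrophages (-2.15 to 2.67), so that a several-fold rise in either subset, or such a fall in CD11c macrophages, was not detectable at this depth. Of its exon bases, 79.5% overlap the read-through gene Gm20547, and how such reads were counted is not given in the sources used here.

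The receptor genes gave the most even values of all members, with a pooled SD within groups of 0.09 (C3ar1) and 0.14 (C5ar1) on the log2 scale, against 0.34 to 0.41 for the C1q chains. C5ar1 encodes the C5a receptor that draws neutrophils and macrophages. It stood at 323, 317 and 300.4 CPM in IAIE control and at 60.4, 69.4 and 58.6 CPM in CD11c control. The 4.99-fold lower level in CD11c cells (log2 -2.32 ± 0.14; adjusted p = 4.50e-09) ranked 3 by p among the 11927 genes. After CGRP the IAIE libraries were at 213, 214 and 235 CPM and the CD11c libraries at 75.6, 56.2 and 61.7 CPM, 3.42-fold apart (-1.77 ± 0.14; adjusted p = 3.18e-08).

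CGRP lowered C5ar1 in IAIE macrophages by 1.42-fold, and all 3 CGRP libraries lay below all 3 controls. The fitted change was -0.51 ± 0.13 on the log2 scale (adjusted p = 0.0180). The call was lost without IAIE control 1 (adjusted p = 0.0603), IAIE control 2 (0.0634), IAIE CGRP 1 (0.0752) or IAIE CGRP 2 (0.084), and with no filter on low counts (0.0951), and the change kept its sign in all 22 alternatives at -0.58 to -0.43. In CD11c macrophages the change was 0.04 (95% interval -0.25 to 0.33; adjusted p = 0.918). The difference between the 2 changes was 0.55 ± 0.19, with an unadjusted p of 0.0102 and an adjusted p of 0.367, so it did not pass.

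C3ar1, the C3a receptor gene, had the smallest adjusted p of the members for CGRP. In CD11c macrophages it stood at 246, 241 and 231 CPM in control and at 466, 385 and 433 CPM with CGRP. Every CGRP library lay above every control library. The rise was 1.79-fold (log2 0.84 ± 0.11; adjusted p = 5.04e-05), rank 145 by p. It was the only member of 9 called higher there, against 6.29% of all genes called higher. The call held in all 22 alternatives run, at log2 0.74 to 0.91, with adjusted p from 1.20e-11 to 0.00101.

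In IAIE macrophages C3ar1 was at 689, 702 and 731 CPM in control and 873, 758 and 814 CPM with CGRP. These groups did not overlap either, but the change of 0.20 ± 0.11 had an adjusted p of 0.310. It rose in CD11c cells but stayed below IAIE cells, and the subset difference was 2.96-fold in control (log2 -1.56 ± 0.12; adjusted p = 2.89e-08) and 1.90-fold after CGRP (-0.93 ± 0.11; adjusted p = 8.05e-06). The difference between the changes with CGRP was 0.63 ± 0.16 (95% interval 0.30 to 0.97), rank 65 with an unadjusted p of 8.26e-04 and an adjusted p of 0.147. DESeq2 gave an adjusted p of 0.0139 for it, and edgeR with the replicate number of each explant as a block 0.0509.

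No member passed the test of a different CGRP response between subsets by edgeR or limma-voom. At an unadjusted p under 0.05 there were 2 (C3ar1 and C5ar1), and by DESeq2 there was 1 (C3ar1). Such calls were rare over all genes, 0.134% in the direction of a higher response in CD11c cells and 0.0168% in the other. Responses past the threshold in 1 subset alone are therefore not shown to be particular to it.

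**Figure D2:**
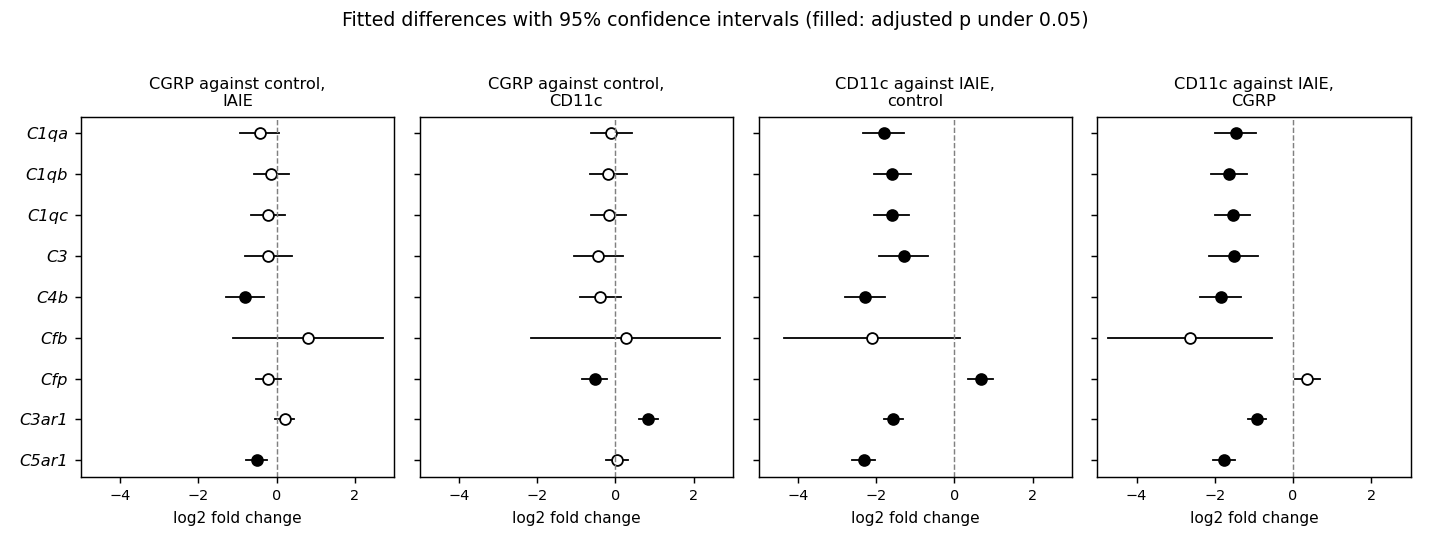
Fitted log2 fold changes (x axis) of the 9 members in 4 comparisons, with 95% confidence intervals as lines. Filled points passed an adjusted p under 0.05: C4b and C5ar1 with CGRP in IAIE, Cfp and C3ar1 with CGRP in CD11c, 8 members between subsets in control and 7 after CGRP.

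Ordered by level per kilobase of exon, C1qb led in all 4 groups and Cfb was last. In IAIE control C1qb was at 857 ± 227 CPM per kb, C1qa at 642 ± 138, C1qc at 294 ± 64.0, C3ar1 at 164 ± 4.99, Cfp at 136 ± 32.1, C5ar1 at 122 ± 4.61, C4b at 64.0 ± 16.2, C3 at 21.9 ± 9.30 and Cfb at 0.780 ± 0.690 (SD, n = 3). The ranges of C1qb and C1qa overlapped, as did those of C3ar1 and Cfp and those of Cfp and C5ar1. In IAIE CGRP the order was the same, and the ranges of C1qc and C3ar1 were the only neighbours to overlap. In CD11c control Cfp took the second place at 218.5 ± 31.4 CPM per kb, between C1qb at 286 ± 45.4 and C1qa at 185 ± 46.0, with ranges that overlapped. In CD11c CGRP, C3ar1 at 99.4 ± 9.55 CPM per kb stood ahead of C1qc at 86.2 ± 29.7, and their ranges overlapped.

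**Figure D3:**
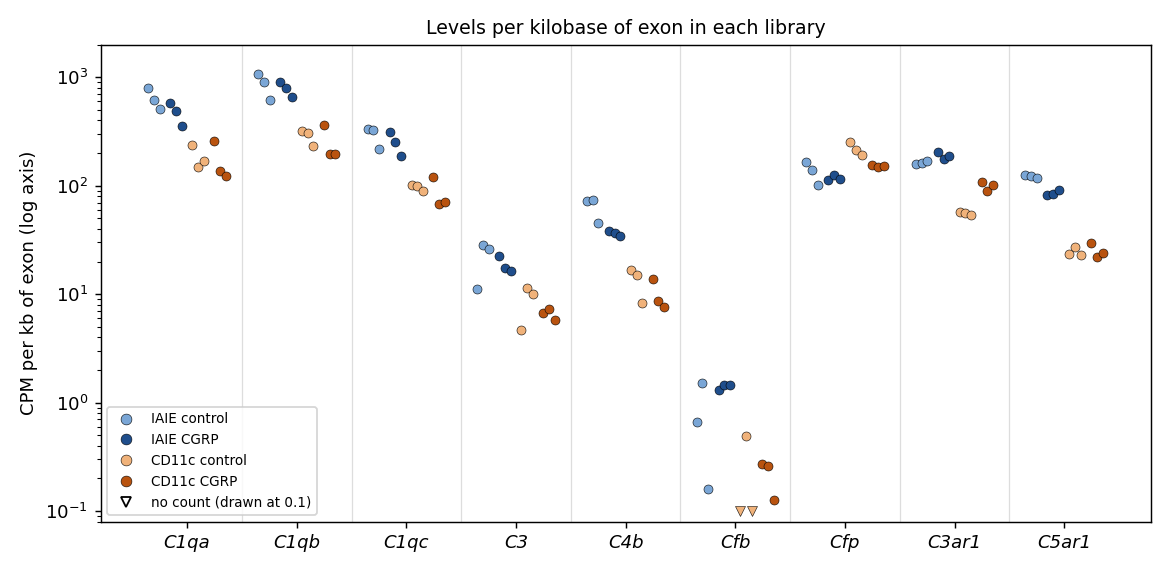
Levels per kilobase of exon (CPM per kb, log axis) of each member in each library, coloured by group, with triangles for libraries with no read. The C1q chains, Cfp, C3ar1 and C5ar1 lie at 21.9 CPM per kb or more in every library, and Cfb at 1.52 or less.

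Genes whose level over the 12 libraries was most like that of each member were named by Pearson's r on log2 CPM among 8456 genes. For the mean of the C1q chains they were Selenop (r = 0.994), Pmp22 (0.989) and Cd209f (0.988). C4b was nearest to Ccl2 (0.990), Csf1r (0.985) and Tlr2 (0.985), and C5ar1 to Stab1 (0.984), Wwp1 (0.983) and F13a1 (0.981). C3ar1 was nearest to Hgsnat (0.979), Mpp1 (0.973) and mt-Cytb (0.968), and Cfp to S100a10 (0.960), Rpl10a (0.949) and Fcrls (0.933). For C3 they were Vps13a (0.950), Chd9 (0.928) and Zbtb10 (0.927), and for Cfb, at few reads, Cacna1a (0.914), Naa80 (0.897) and Vps35 (0.894). The libraries fall into 2 subsets, which sets much of each r, and these values are a description with no test.

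Of 47 other complement genes, 21 passed the filter on low counts. In IAIE macrophages CGRP moved 0 of the 21 past the threshold by edgeR and by DESeq2, with 1 higher at an unadjusted p under 0.05 and 1 by limma-voom. That gene was Vsig4, a receptor for C3 fragments on resident macrophages, at 45.0, 119 and 86.8 CPM in control and 156, 168 and 130.1 CPM with CGRP (adjusted p = 0.0730). In CD11c macrophages 4 were higher and 2 lower, against 6.29% and 4.59% of all genes, and DESeq2 called 2 higher and 1 lower. Vsig4 was among those higher, at 49.4, 44.7 and 36.0 CPM in control and 86.7, 125 and 52.1 CPM with CGRP (log2 1.02 ± 0.30; adjusted p = 0.0304). Its call was lost with DESeq2 and without any of CD11c control 2, CD11c control 3, CD11c CGRP 1 or CD11c CGRP 2. The 2 lower were Itgax, a chain of complement receptor CR4 and the gate of the sort (-1.03 ± 0.30; adjusted p = 0.0288), and Cd93, once described as a C1q receptor (-0.85 ± 0.26; adjusted p = 0.0435), each lost in 8 alternatives.

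The others higher in CD11c CGRP were Serping1, the inhibitor of C1 proteases, Clu, a soluble regulator of the terminal pathway, and C1s1, a C1 protease, the last named after its values were seen. Serping1 was at 0.816, 0.701 and 1.29 CPM in CD11c control and at 20.5, 2.97 and 7.47 CPM with CGRP (log2 3.40 ± 0.79; adjusted p = 0.00733). Its call was lost without CD11c CGRP 1 and with limma-voom. Clu was at 20.0, 3.27 and 2.36 CPM against 11.5, 101 and 25.3 CPM, with overlap (2.54 ± 0.80; adjusted p = 0.0472), and was lost in 10 of 21 alternatives. C1s1 had 0 to 1 reads in the CD11c control libraries and 16 to 25 with CGRP, at least 4.52-fold higher against a floor of 3 reads per library (adjusted p = 0.0143), and was lost without CD11c control 1 or CD11c control 2 (adjusted p up to 0.0735). It shares 35.1% of its 50-base words with other genes, mostly C1s2.

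Markers of stromal cells rose beside these genes. With CGRP, 3 of 6 tested fibroblast markers (Col3a1, Dcn and Pdpn), 4 of 4 mural cell markers and 2 of 2 chondrocyte markers were higher in CD11c cells. Pdpn, called higher in IAIE CGRP too, carried most of the summed fibroblast level in CD11c cells. It averaged 202.5 CPM in CD11c control and 371 CPM in CD11c CGRP. Summed mural markers went from 25.5 to 31.3 CPM in control to 345, 51.5 and 173 CPM with CGRP. Summed chondrocyte markers went from 1.40 to 6.53 CPM to 113, 586 and 10.85 CPM. CD11c CGRP 1, highest for Serping1 and C3ar1, was highest for mural markers, and CD11c CGRP 2, highest for Clu, was highest for chondrocyte markers. The rise of C3ar1 was 0.74 without CD11c CGRP 1 and 0.91 without CD11c CGRP 2 (log2). The part of stromal cells in the changes of C3ar1, Serping1, Clu and C1s1 was not tested.

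**Figure D4:**
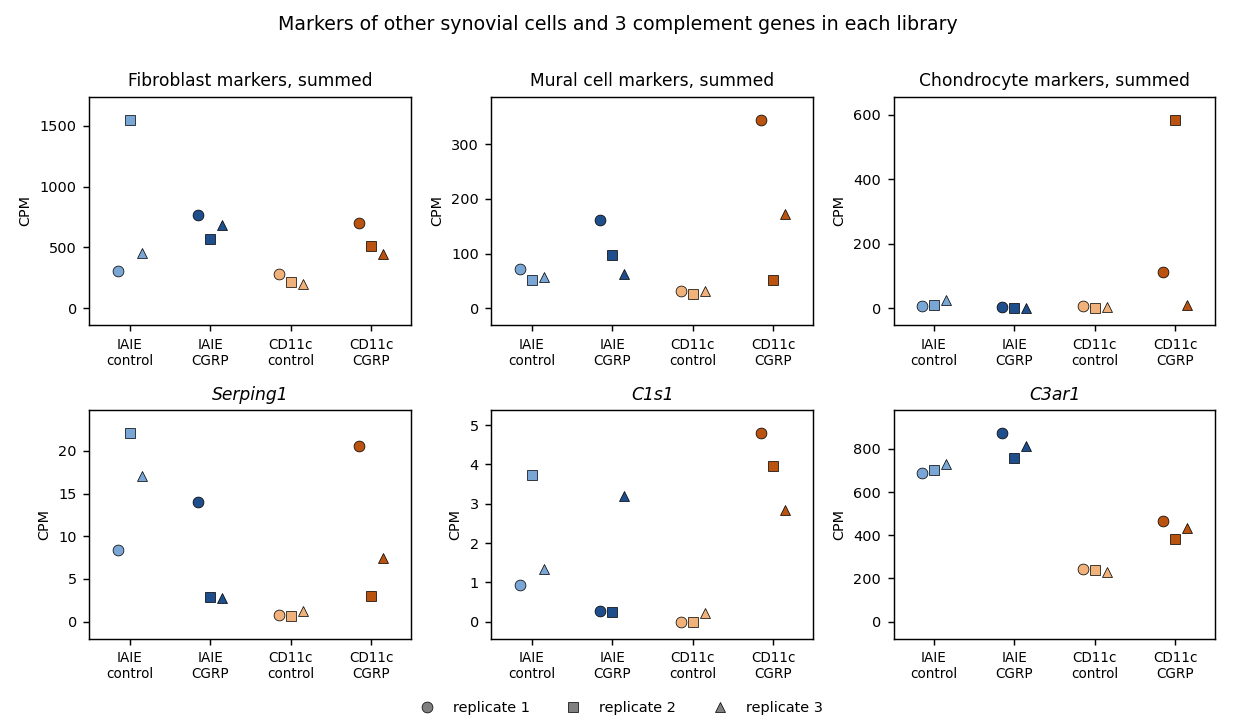
CPM (y axes, linear) in each library by group, of summed fibroblast, mural cell and chondrocyte markers (upper row) and of Serping1, C1s1 and C3ar1 (lower row). Symbols mark the replicate number. The CD11c CGRP libraries differ among themselves in mural (51.5 to 345 CPM) and chondrocyte markers (10.85 to 586 CPM), and C3ar1 lies at 385 to 466 CPM there.

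Between subsets in control, 9 of the 21 other complement genes were lower in CD11c cells and 3 higher, against 10.9% and 10.2% of all genes. Colec12, a collectin gene, was 3.98-fold lower (adjusted p = 1.003e-04). Fcna, which encodes a recognition molecule of the lectin pathway, was 2.69-fold lower (0.00395). C5ar2, the second C5a receptor and a neighbour of C5ar1, was lower as well, at 9.62 ± 3.10 against 2.06 ± 0.795 CPM (4.50-fold; adjusted p = 0.00400). Cd93 was 3.14-fold lower (1.15e-04), Serping1 16.1-fold (0.00120) and Vsig4 1.94-fold (0.0277), the last lost with DESeq2 and without any of IAIE control 2 or 3 or CD11c control 2 or 3. Serping1 had only 2 to 6 reads in the CD11c control libraries, so the size of its fold is uncertain. C1ra and C1s1 were also lower, and the C1s1 call was lost in 8 of 21 alternatives, among them limma-voom, the explant replicate block and the fit without IAIE control 2 (adjusted p up to 0.161). Calr, calreticulin, which binds C1q, was 1.27-fold higher (adjusted p = 0.0298), and was lost in 4 fits without 1 library. Itgb2 and Itgax were the other 2 higher.

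After CGRP, 5 of the 21 were lower in CD11c cells, among them Cd93 (4.01-fold; adjusted p = 1.71e-05), Fcna (3.49-fold; 4.81e-04), Colec12 (2.55-fold; 0.00218) and C5ar2 (3.72-fold; 0.00869). The background over all genes was 8.51% lower and 8.36% higher. C5ar2 was lost without CD11c CGRP 1 (0.0510). The 3 higher were Itgax, Calr (1.301-fold; 0.0215) and Clu, whose mean was 1.42 ± 1.34 CPM for IAIE cells and 45.9 ± 48.2 CPM for CD11c cells (adjusted p = 8.16e-04). The Calr call was lost in 4 fits without 1 library (adjusted p up to 0.105). By the test of a different CGRP response between subsets, 0 of the 21 passed with edgeR and limma-voom, 1 with DESeq2 (Serping1) and 3 at an unadjusted p under 0.05 (Serping1, Clu and C1s1).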

How the data were processed

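Total RNA from sorted synovial macrophages was measured in 12 libraries (4 groups of 3; stranded pico-input kit, 2 × 150 paired-end reads). Per the submitters' processing notes and the study's methods, the authors trimmed reads with Trim Galore, checked them with FastQC, aligned them with HISAT2 (mm10) and used featureCounts for gene counts. The deposited values are raw counts, and strand and multimapping settings are not given in the sources used here, so overlapping genes and near-copies may share reads. The 12 columns of a combined table matched the library files, and 6 further columns were not used.

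Counts were fitted in 1 edgeR (4.0.16) quasi-likelihood model over the 12 libraries with a mean per group, TMM scaling and the filterByExpr filter (minimum count 10, minimum total 15). Benjamini-Hochberg adjustment ran over 11927 genes with a threshold of 0.05. Intervals are 95% and use 18.8 degrees of freedom. CPM are TMM-scaled over the reads of kept genes, and levels per kb use the exon union of GENCODE vM21. Log2 levels used a pseudocount of 0.5. The fit was tested on simulated data. Alternatives were RLE and upper-quartile scaling, no filter, at least 10 counts in every library, replicate blocks, 1 surrogate variable (sva 3.50.0), the compared groups alone, DESeq2 1.42.0, limma-voom (limma 3.58.1) with quality weights, a threshold of 0.1 and leaving out each library.

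The members and lists were chosen with earlier results of these data known. Other complement genes were named where they were among the 10 with the smallest adjusted p in any comparison and averaged 5 CPM or more, plus Itgax and H2-Ab1. The result of 1 gene named by this rule is not reported here. Likeness used the 3 genes of highest r, predicted genes left out. Same-numbered libraries were checked for pairing by their deviations from group means over 7618 genes. The CGRP libraries of both subsets correlated at 0.233, 0.127 and 0.136, and the control libraries at 0.0789, 0.0414 and 0.0677. The main fit paired no libraries. The explant replicate block paired same-numbered libraries of both subsets, within control as within CGRP. Its values for control and for the difference between responses therefore also rest on the control pairs, which correlated less. Over 7161 genes averaging 10 CPM or more the second CGRP pair was at 0.0831. The labels do not tie the numbers to explants.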

Additional observations from a re-analysis of the deposited data

How the results depend on the processing

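Of 1001 member values refitted under alternatives, 949 kept their direction and side of the threshold, 15 were no longer past it, 8 newly passed and 29 changed sign, all of the last among members not called. Both subset comparisons kept their 7 lower members throughout. For CGRP in IAIE, 1 member passed with no filter on low counts and 1 with 1 surrogate variable, and 0 to 2 with 1 library left out. For CGRP in CD11c, 1 passed with 1 surrogate variable, and 1 to 2 with 1 library left out. For the difference between the responses, 1 passed with DESeq2. The cause was not tested. With the replicate block over all groups the number of members called changed in no comparison, and with the explant replicate block it moved only after CGRP, from 7 to 8.

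Signs changed for CGRP in CD11c with upper-quartile scaling (C5ar1 -0.0090), with 1 surrogate variable (C1qa 0.076, Cfb -0.29, C5ar1 -0.030), and for the difference between responses with no filter (C1qc -0.014) and with limma-voom (C1qc -0.034, Cfb 0.026). With 1 library left out, C1qb ranged from -0.30 to 0.060 and C3 from -0.53 to 0.049 for CGRP in IAIE, and C1qa from -0.54 to 0.11, Cfb from -0.37 to 4.375 and C5ar1 from -0.12 to 0.13 for CGRP in CD11c. For the difference between responses, C1qa ranged from -0.13 to 0.53, C1qb from -0.46 to 0.11, C1qc from -0.32 to 0.23, C3 from -0.51 to 0.088 and Cfb from -1.47 to 3.55. Cfb was not fitted under at least 10 counts in every library. Among the members, depth limited Cfb most.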
